A study of Mus musculus with 60 samples.

Results

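Nascent transcription of 9 genes of the coactivator and pause-release machinery was followed through acute inhibition of CBP/p300 and acute loss of RAD21 or CTCF. The genes were the acetyltransferase genes Crebbp, Ep300, Kat2a and Kat2b, the BET reader genes Brd2 and Brd3, and the pause-release genes Hexim1, Cdk9 and Ccnt1. They were taken by name, through the GENCODE M21 symbol of each transcript, and account for 11 of the 27665 rows of the count table. Kat2b and Brd3 have 2 rows each, and the row with the longer exonic sequence was used unless the other is named. All 9 genes passed the filter on low counts in every comparison.

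Cells were labelled with 5-EU (0.5 mM for 20 min), and the tagged nascent RNA was sequenced (EU-seq), in 60 libraries of mouse embryonic stem cells (mESCs) and of neuronal progenitor cells (NPCs) differentiated from RAD21AID mESCs. In RAD21AID cells, indole-3-acetic acid (IAA, 500 µM) triggers the degradation of RAD21, a cohesin subunit, through an auxin-inducible degron, which the controls and the A-485 libraries carry too. NPC libraries came in pairs: 2 untreated, 2 with A-485 (10 µM for 1 h), an inhibitor of the acetyltransferase domain of CBP and p300, and 2 per time of IAA at 1, 2 and 4 h. RAD21AID mESCs were treated with IAA for 4 h in an initial experiment (2 libraries per group) and an additional one (12 per group). CTCFAID mESCs, with the same kind of degron on CTCF, had 4 libraries per group at 6 h of IAA, and each group held 2 libraries with and 2 without strand information. In CTCFYF-AA mESCs both alleles encode CTCF with 2 N-terminal substitutions and a dTAG degron, and 2 libraries each were untreated or had dTAG-13 for 2 or 4 h. A further line has 1 CTCF allele lacking the N-terminal region with a bTAG degron (AGB1, 100 nM) and 1 lacking the C-terminal region with a dTAG degron. It had 2 libraries each without treatment and at 2 h of AGB1, dTAG-13 or both. For dTAG-13 the sources differ between 100 and 200 nM. The last 2 lines were made in E14TG2a mESCs and grown from picked colonies. For 18 libraries of the CTCFAID, CTCFYF-AA and initial RAD21AID experiments, the labels also describe the inhibitor triptolide, which no title names, and groups here follow the titles.

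CBP (Crebbp) and p300 (Ep300) are paralogous acetyltransferases that acetylate histones H3 and H2B at enhancers and promoters. GCN5 (Kat2a) and PCAF (Kat2b) are the catalytic subunits of the SAGA and ATAC complexes. BRD2 and BRD3 bind acetylated histones through bromodomains. Promoter-proximally paused RNA polymerase II is released by P-TEFb, the kinase CDK9 with a cyclin T such as cyclin T1 (Ccnt1). HEXIM1, together with 7SK RNA, holds P-TEFb in an inactive complex, and a rise of HEXIM1 RNA is a known mark of BET inhibition. The question was whether the RNA of this machinery changed when CBP/p300 activity was blocked, and how that compared with loss of RAD21 or CTCF.

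Total counts ran from 4027449 to 21898781 per library. Among the marker genes, summed levels of 6 mESC markers were 2980 to 6100 TPM in mESC libraries and 45.6 to 59.9 TPM in NPC libraries, and those of 6 NPC markers were 18.9 to 76.2 and 1340 to 1690 TPM, so both labels held. Neuron markers summed to 29.7 to 150 TPM in mESCs and 57.4 to 68.8 TPM in NPCs, glia markers to 2.94 to 23 and 11.5 to 19.8 TPM, and endoderm and mesoderm markers to 20.9 to 110 and 50.5 to 58.6 TPM. In bulk libraries, fewer cells of a type and less RNA per cell cannot be told apart. The study calls its replicates of RAD21 and CTCF depletion biological, while the labels do not say whether libraries came from separate cultures, and p-values measure the spread between these libraries. H2-DMa lies on the opposite strand over 28.9% of the Brd2 body and 9330020H09Rik over 7.01% of the Ccnt1 body. Reads of these partners could not be told from those of Brd2 and Ccnt1 in libraries without strand information, and their counts are uncertain to that extent.

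Among the 9 genes, Kat2b stood out for its level in NPCs. Levels per length (TPM over the gene body, introns included) were highest for Brd2 in all 7 control groups, at 607 ± 2.8 TPM (SD, n = 2) in NPCs. In NPCs Cdk9 followed at 201 ± 11.5 TPM and Hexim1 at 183 ± 1.74 TPM, with no overlap between their libraries. Kat2a (81.9 ± 0.0751 TPM) and Ccnt1 (80 ± 2.72 TPM) came next and differed by less than the spread of Ccnt1. Crebbp (69.2 ± 2.06 TPM), Ep300 (66 ± 2.73 TPM) and Brd3 (61.6 ± 5.34 TPM) followed, each overlapping with the next in this order. Kat2b was the lowest, at 8.47 and 9.21 TPM in both NPC controls. Its NPC means after 4 h of IAA (12.1 TPM) and under A-485 (4.46 TPM over the first 90 kb) were low as well. In these NPC comparisons Kat2b thus lay below 15 TPM, the limit for the expressed genes on which changes were centred. In mESC controls its level was 20.2 TPM in the lowest library, and the group means ran from 21.8 to 58.3 TPM. No mESC control therefore overlapped the NPC controls for this gene. This difference in level between cell types was not tested, since experiment and cell type change together.

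**Figure D1:**
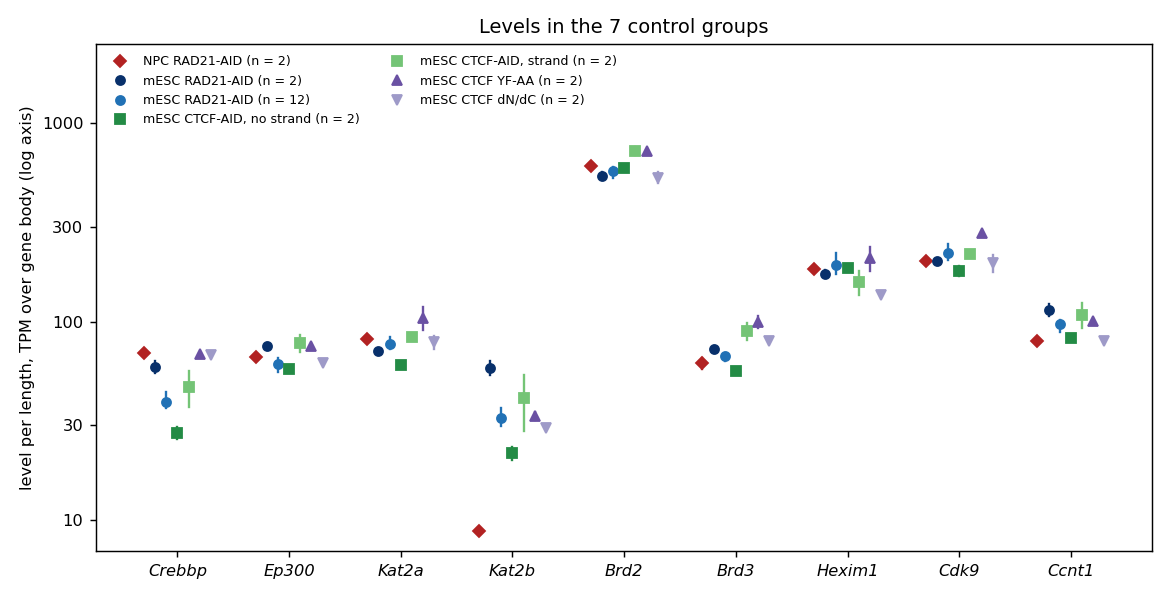
Levels per length (TPM over the gene body, log axis) of the 9 genes in the 7 control groups; symbols are group means and vertical lines run from the lowest to the highest library. Kat2b in NPCs (8.84 TPM) lies below every mESC group, while the NPC means of 7 other genes lie within the range of the mESC group means and that of Crebbp (69.2 TPM) lies just above it.

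A-485 raised Hexim1 and lowered Kat2b within 1 h, and moved the rest of the 9 genes by much less. Counting for this comparison stopped 90 kb into a gene, which leaves 67.8% of the Crebbp body, 85.1% of the Kat2b body and all of the others. In edgeR's quasi-likelihood test, 7 of the 9 genes passed an adjusted p of 0.05, with 3 higher and 4 lower, where 62.6% of all 16009 tested transcripts passed (21.6% higher and 41.0% lower). A count of 7 of 9 is near that background. The libraries of both groups did not overlap for 7 of the 9 genes and for 81.7% of all transcripts. The median log2 fold change was -0.06 over the 9 genes and -0.11 over all tested transcripts. At a 2-fold change 1 of the 9 genes passed, against 21.0% of all transcripts. Marker genes of several cell types fell in the same libraries. All 6 NPC markers were lower (median log2 fold change -1.95), and their summed level over the counted stretch went from 1340 and 1500 TPM to between 570 and 722 TPM. Of the mESC markers 4 of 4 tested were lower (median -1.44; sums of 57.8 to 60 TPM, then 24.9 to 25.7 TPM), of the neuron markers 4 of 4 (median -0.84; 57.4 to 57.5 TPM, then 43.6 to 46.9 TPM), of the endoderm and mesoderm markers 3 of 4 (median -1.62; 58.2 to 58.7 TPM, then 35.4 to 52.5 TPM) and of the glia markers 1 of 3 (median -0.44; 19.1 to 20.2 TPM, then 19.5 to 21.8 TPM). Among these markers the endoderm gene Sox17 was at 0 in both groups, and the part of these shifts in the values of the 9 genes was not tested.

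**Figure D2:**
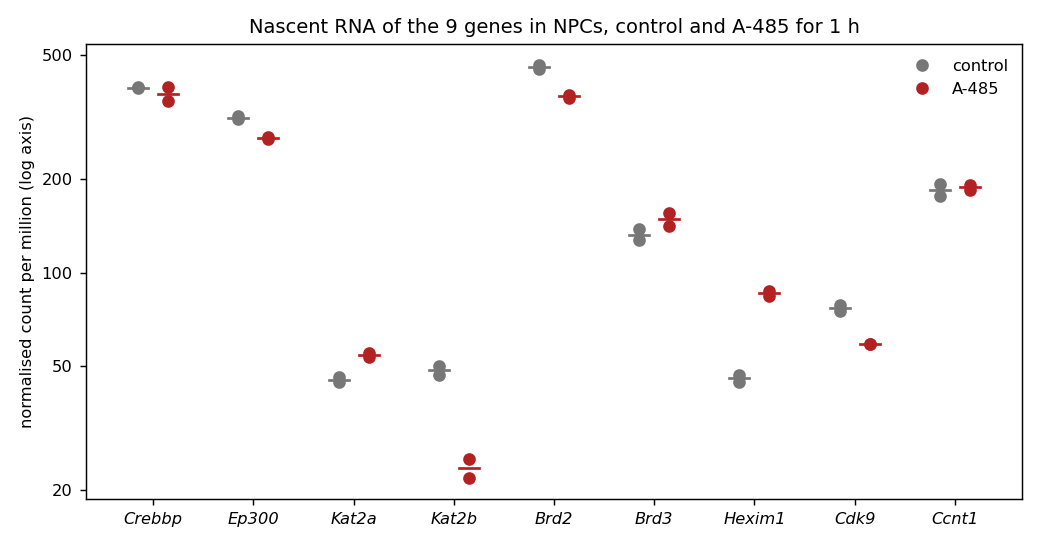
CPM (log axis) of the 9 genes in NPC libraries, 2 controls in grey and 2 after 1 h of 10 µM A-485 in red; short lines are means. Hexim1 rises from 44.6 and 46.9 to 84.1 and 87.4, and Kat2b falls from 47 and 50.2 to 21.8 and 25.1, whereas the groups of Crebbp and Ccnt1 overlap.

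Hexim1, the P-TEFb inhibitor, lies at chr11:103116231-103119725 on the plus strand (mm10), a single exon of 3.5 kb. Its counts were 682 and 734 in the NPC controls and 1391 and 1566 after A-485, or 46.9, 44.6, 84.1 and 87.4 CPM (counts scaled to normalised library size). Both treated libraries lay far above both controls. The log2 fold change was 0.91 (SE 0.068; adjusted p = 7.46e-09 in edgeR's quasi-likelihood test), a 1.88-fold rise, and 1.14% of tested transcripts rose by more. At a 2-fold rise, which Hexim1 did not reach, 0.818% of transcripts passed. The sequence upstream of both the annotated and the RefSeq start is shown because Hexim1 is the gene of this set with the largest rise. It runs from chr11:103116075-103116230 on the plus strand (RefSeq, GRCm38.p6), with the motifs found in capitals.
Hexim1: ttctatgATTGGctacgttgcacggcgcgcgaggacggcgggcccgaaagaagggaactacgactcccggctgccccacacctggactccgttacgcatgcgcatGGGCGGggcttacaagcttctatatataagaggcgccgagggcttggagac
Of 7 motifs searched on both strands, 2 had a match in these 156 bases, a CCAAT box in reverse (ATTGG, of CCAAT) at base 8 and a GC box (GGGCGG) at base 106. A CCAAT match occurred in 20.9% and a GC box in 17.5% of 32851 RefSeq promoter windows of the same length and distance from the RefSeq start. Such windows leave out the bases nearest to that start, while the Hexim1 window reaches its annotated start. The cyclic AMP response element TGACGTCA (0.399% of windows), its 5 letters TGACG that lie within it (8.76%), TGAGTCA (2.68%), TATAAA (7.52%) and CACGTG (3.03%) did not occur as letters in this window. Only exact letters were searched, and near its end the window holds tatataag, a variant of the TATA letters.

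Kat2b, the gene of PCAF, lies at chr17:53566971-53672720 on the plus strand (mm10, 105.8 kb). Its counts were 683 and 826 in the controls and 360 and 449 after A-485, or 47, 50.2, 21.8 and 25.1 CPM. The treated mean was 0.482 times the control mean, and the groups did not overlap. The log2 fold change was -1.05 (SE 0.09; adjusted p = 3.87e-08 in edgeR's quasi-likelihood test), and 19.3% of tested transcripts fell by more. The second row, a nested transcript at chr17:53584126-53638422 that shares reads with the first, fell by 1.15 on the log2 scale (SE 0.13; adjusted p = 8.67e-07). It is no independent support. The 250 bases before the start are shown for comparison with Hexim1, as the gene with the largest fall, at chr17:53566721-53566970 on the plus strand (RefSeq, GRCm38.p6), again with motifs in capitals.
Kat2b: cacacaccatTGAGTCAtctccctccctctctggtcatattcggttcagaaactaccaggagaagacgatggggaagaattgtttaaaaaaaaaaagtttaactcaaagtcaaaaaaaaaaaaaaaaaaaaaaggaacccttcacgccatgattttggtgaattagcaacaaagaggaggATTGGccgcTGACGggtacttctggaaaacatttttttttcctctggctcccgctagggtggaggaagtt
This window held TGAGTCA at base 11, CCAAT in reverse at base 181 and TGACG at base 190. Among RefSeq windows of 250 bases, TGAGTCA occurred in 4.46%, CCAAT in 33.8% and TGACG in 17.8%. TGACGTCA (1.55%), GGGCGG (32.7%), TATAAA (12.4%) and CACGTG (6.02%) did not occur as letters. A match is a description of the letters and not evidence that a factor binds.

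The targets of A-485 moved little. Ep300 was at 312 and 319 CPM in the controls and 273 and 270 after A-485, a log2 fold change of -0.21 (SE 0.06; adjusted p = 0.00523). This call was lost in 7 of 13 alternatives, among them DESeq2 (-0.22; adjusted p = 0.275), the fit without centring (-0.09; adjusted p = 0.181), the gene-length trend as an offset (-0.02; adjusted p = 0.776) and either control library left out. Crebbp was at 395 and 392 and then 397 and 357. Its groups overlapped, and the log2 fold change was -0.06 with a 95% interval of -0.2 to 0.08 (adjusted p = 0.433). It passed as higher with the gene-length trend (0.22; adjusted p = 0.00994) and on library totals (0.27; adjusted p = 0.00218), and as lower without A-485 replicate 1 (-0.14; adjusted p = 0.0038). Of the BET genes, Brd2 fell from 467 and 453 to 372 and 366 (log2 fold change -0.32, SE 0.061; adjusted p = 0.000295). Brd3 was 127 and 138, then 141 and 156 (log2 fold change 0.17, SE 0.069; adjusted p = 0.0467), its second row missed the threshold (0.15; adjusted p = 0.0538), and its call was lost without either control or without A-485 replicate 2.

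On the centred scale, the P-TEFb genes did not follow Hexim1. Cdk9, the kinase, fell from 75.2 and 78.6 to 58.9 and 58.8 CPM (log2 fold change -0.39, SE 0.066; adjusted p = 9.62e-05). Ccnt1, its cyclin, was at 193 and 177 and then 185 and 192, with a log2 fold change of 0.03 and a 95% interval of -0.1 to 0.17 (adjusted p = 0.69). Ccnt1 passed as higher in the edgeR fit without centring (0.15; adjusted p = 0.0433) and on library totals (0.36; adjusted p = 0.00012). Kat2a, the paralog of Kat2b, rose from 46.2 and 44.4 to 55.3 and 53.5 (log2 fold change 0.26, SE 0.072; adjusted p = 0.00456), opposite in sign to Kat2b.

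Scaling bears on these changes, though Hexim1 and Kat2b passed the adjusted p under each scaling run. Centring on expressed genes removed a shift of 0.123 on the log2 scale, and counts scaled to library totals alone lay 0.33 higher over all transcripts than the values above. Of all calls, 34.5% were higher as reported, 47.9% without centring and 63.4% on library totals. On library totals Hexim1 was at 1.24 and Kat2b at -0.72, so that Hexim1 and not Kat2b lay beyond a 2-fold change. There, Cdk9 was at -0.05 (adjusted p = 0.464), Brd2 at 0.02 (adjusted p = 0.804) and Ep300 at 0.12 (adjusted p = 0.0756), none past the threshold, and the fall of Brd2, Ep300 and Cdk9 is relative to the typical expressed gene. Without control replicate 2, 4 of the 9 genes passed (Kat2b, Brd2, Hexim1 and Cdk9).

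Set against RAD21 loss at the same hour, A-485 differed for 4 genes. After 1 h of IAA, 1 of the 9 genes passed, where 16.9% of 15860 transcripts did. It was Ep300, from 289 and 296 to 270 and 271 CPM (log2 fold change -0.11, SE 0.038; adjusted p = 0.0446). This call was lost in 11 of 14 alternatives. Among them were DESeq2, the replicate block, the gene-length trend, library totals and each library left out in turn. Without centring, Brd3 passed in place of Ep300. Hexim1 was at 43.6 and 41.4 in the controls and 44.9 and 44.2 after IAA, a log2 fold change of 0.07 with an interval of -0.07 to 0.21. Kat2b was at 43.6 and 46.6 and then 43 and 45, with a log2 fold change of -0.04 and an interval of -0.18 to 0.11. Neither gene had moved detectably at 1 h. In the direct test of A-485 against 1 h of IAA, Hexim1 was higher by 0.84 on the log2 scale (SE 0.067; adjusted p = 2.44e-07) and Kat2b lower at -1.02 (SE 0.091; adjusted p = 7.42e-07). Brd2 (-0.3; adjusted p = 0.00106) and Cdk9 (-0.27; adjusted p = 0.00304) were also lower under A-485, and 60.8% of 15882 transcripts passed this test. On library totals the Brd2 and Cdk9 differences were 0.01 and 0.04 and did not pass, and DESeq2 did not call Cdk9.

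Longer loss of RAD21 in NPCs raised Hexim1 and, at 4 h, Kat2b. After 2 h, 1 of the 9 genes passed (15.4% of 15995 transcripts did). It was Hexim1, at 36.6 and 34.8 in the controls and 41.4 and 45.5 after IAA (log2 fold change 0.28, SE 0.083; adjusted p = 0.0459). This call was lost in DESeq2, with a gene-length trend as an offset and without either control library. Leaving out IAA replicate 1 gave 3 passing genes (Ep300, Kat2a and Hexim1).

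After 4 h, 5 of the 9 genes passed, 3 higher and 2 lower, where 39.9% of 16148 transcripts passed (15.4% higher and 24.5% lower). Of all calls 38.7% were higher, and 66.5% on library totals, where Ep300 was at 0.01. The libraries of both groups did not overlap for 7 of the 9 genes and 67.9% of transcripts. Kat2b rose from 51.9 and 54.3 to 69.9 and 66.9 CPM (log2 fold change 0.37, SE 0.054; adjusted p = 1.57e-06), and 8.74% of transcripts rose by more. Both treated libraries lay above both controls, and the nested row rose by 0.27 (adjusted p = 0.0195). The sign is opposite to that of A-485 in the same cells, with the same 2 control libraries in both comparisons but counted over different stretches of the gene. Hexim1 rose from 37.2 and 35.3 to 44.7 and 42.7 (log2 fold change 0.27, SE 0.065; adjusted p = 0.00113), in the same direction as under A-485 and with the same controls. Brd2 rose from 371 and 359 to 402 and 397 (0.13, SE 0.036; adjusted p = 0.00354). Kat2a fell from 36.6 and 35.2 to 31.5 and 30.5 (-0.21, SE 0.069; adjusted p = 0.0153). Ep300 was at 247 and 252 and then 224 and 242 (-0.1, SE 0.039; adjusted p = 0.0346). Crebbp (-0.07), Ccnt1 (-0.1), Cdk9 (0) and Brd3 (0.01) did not pass. Kat2b and Hexim1 kept their direction and call in every alternative run. The Ep300 call was lost in 10 of 13, among them the replicate block (adjusted p = 0.0514), DESeq2 (adjusted p = 0.364), the gene-length trend (adjusted p = 0.786), the fits without centring, and either control or IAA replicate 1 left out. That of Kat2a was lost in 5, namely DESeq2 (adjusted p = 0.221), library totals (adjusted p = 0.256), a spread shared with the third NPC group (adjusted p = 0.135), and without control replicate 1 or IAA replicate 2. That of Brd2 was lost in 3, with the gene-length trend (adjusted p = 0.107), with the shared spread (adjusted p = 0.0984) and without control replicate 2 (adjusted p = 0.0713). Markers moved here as well: 3 of 4 mESC markers were lower (median -0.59), 3 of 6 NPC markers higher and 1 lower (median 0.26), and 3 of 4 neuron markers lower and 1 higher (median -0.24), and their part in the result was not tested.

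**Figure D3:**
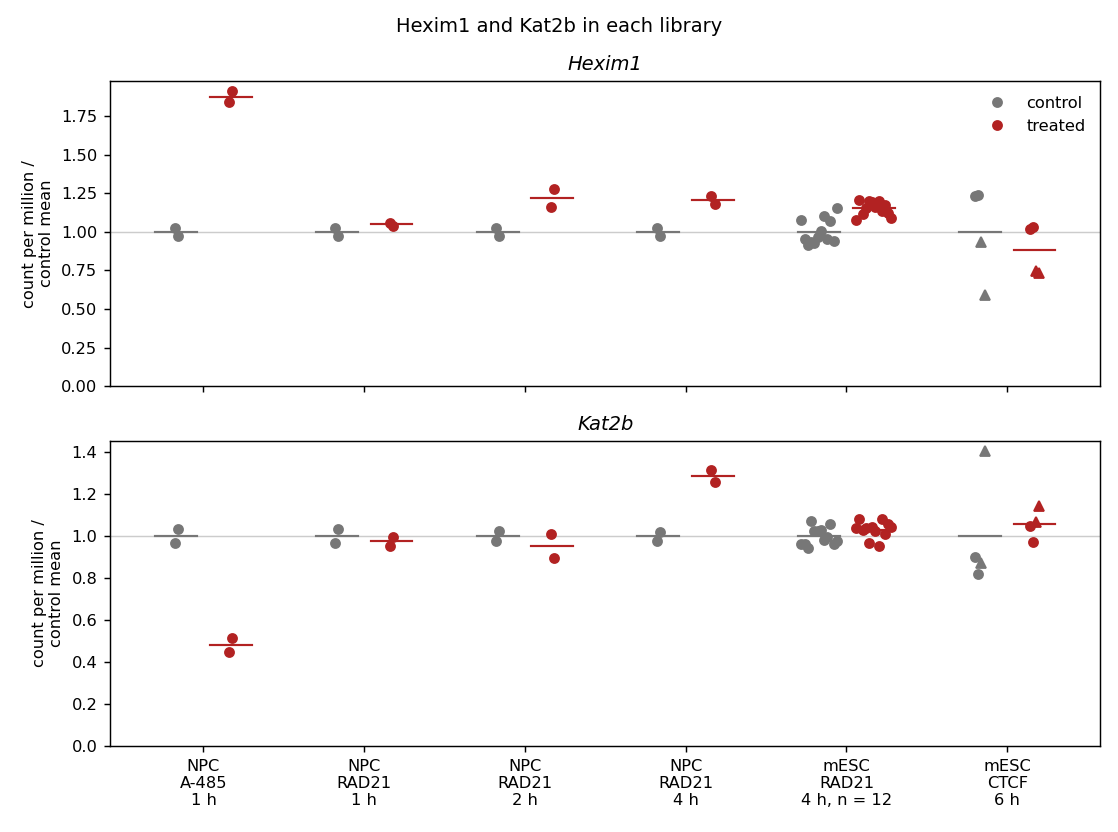
CPM of Hexim1 (top) and Kat2b (bottom) in each library, divided by the control mean of the same comparison; grey points are controls, red points treated libraries, triangles libraries made with strand information in the CTCF comparison, and short lines group means. In NPCs Kat2b lies below its controls under A-485 and above them after 4 h of RAD21 loss, while Hexim1 lies above its controls in both.

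In mESCs Hexim1 rose in the larger experiment, and Kat2b did not pass there. With 12 libraries in each group, Hexim1 ran from 36.1 to 45.4 (median 37.8) CPM in the controls and from 42.4 to 47.5 (median 45.6) after 4 h of IAA. The groups overlapped, and IAA was higher in 10 of 12 same-numbered pairs. The log2 fold change was 0.21 (SE 0.033; adjusted p = 3.7e-07). Cdk9 ran from 67.2 to 74 (median 69) and from 59.8 to 70.4 (median 65.2), a log2 fold change of -0.09 (SE 0.025; adjusted p = 0.00208). Brd3 changed by -0.07 (SE 0.022; adjusted p = 0.00549). These 3 of 9 genes compare with 58.7% of 15732 transcripts that passed. Kat2b ran from 192 to 218 (median 202) and from 194 to 220 (median 211), with a log2 fold change of 0.04 and an interval of 0 to 0.09 (adjusted p = 0.081). The nested Kat2b row was at 0.09 and passed (adjusted p = 0.0124), and the main row passed with the gene-length trend (0.08; adjusted p = 0.00179) and on library totals (0.07; adjusted p = 0.00423). With the gene-length trend as an offset, 6 of the 9 genes passed.

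In the initial mESC experiment none of the 9 genes passed in edgeR (8.64% of 15177 transcripts did), none had an unadjusted p under 0.05, and none passed in DESeq2. The Hexim1 value there was 0.1, with an interval of -0.11 to 0.32 that includes the 0.21 of the larger experiment. Without control replicate 1 of that experiment, Brd2 alone passed.

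The difference between the RAD21 responses of NPCs and mESCs (12 libraries per group) at 4 h was tested as an interaction. Kat2b differed by 0.32 (SE 0.066; adjusted p = 6.87e-05), Kat2a by -0.26 (SE 0.086; adjusted p = 0.0144), Ccnt1 by -0.14 (adjusted p = 0.0278) and Brd2 by 0.12 (adjusted p = 0.0472), NPC minus mESC. Thus 4 of 9 genes passed, against 33.9% of 17538 transcripts. The nested Kat2b row differed by 0.18 and did not pass (adjusted p = 0.198). The Ccnt1 call was lost in 6 of 9 alternatives, among them DESeq2 (adjusted p = 0.0885), the fit without centring (adjusted p = 0.118) and library totals (-0.05; adjusted p = 0.467). Of the others, Brd2 was lost in 4, without the low-count filter (adjusted p = 0.0789) and without control replicate 2 or either IAA replicate, and Kat2a in 3, on library totals (adjusted p = 0.126) and without control replicate 1 or IAA replicate 2. Hexim1 differed by 0.06, with an interval of -0.11 to 0.23, so the test did not separate its rise in NPCs from that in mESCs. Cell type, batch and experiment change together in this contrast and cannot be told apart.

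**Figure D4:**
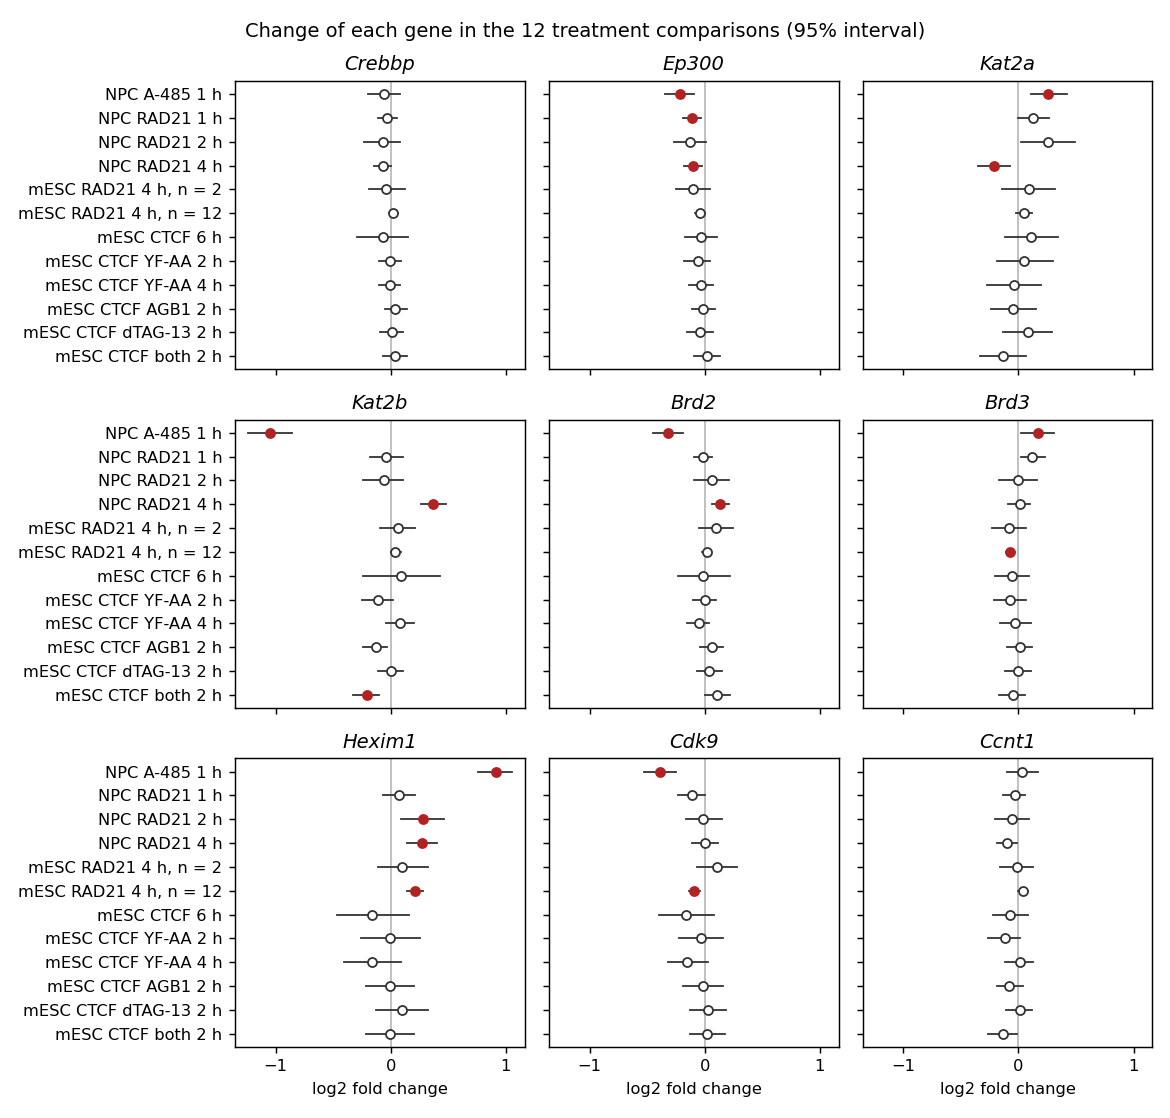
Log2 fold change (treated over control, horizontal axis) of each gene in the 12 treatment comparisons, with 95% intervals; filled red points passed an adjusted p of 0.05 in edgeR. Hexim1 passed in 4 comparisons, all higher, and Crebbp and Ccnt1 passed in none.

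In the CTCF comparisons the point estimates of these genes stayed within a narrow range, while their intervals were wider. Over 6 CTCF comparisons and 54 gene values, log2 fold changes ran from -0.21 to 0.11, and 1 value passed. After 6 h of IAA in CTCFAID mESCs none of the 9 genes passed in edgeR (3.57% of 15611 transcripts did), none had an unadjusted p under 0.05, and none passed in DESeq2. Hexim1 was at 49.9 and 50.2 in the controls without strand information and 37.9 and 24 in those with it, and at 41.3, 41.7, 30.1 and 29.7 after IAA. The library types lay further apart than the treatment groups, and the log2 fold change was -0.16 with an interval of -0.47 to 0.16. Kat2b was at 185, 168, 179 and 289 in the controls and 215, 200, 219 and 235 after IAA, with a log2 fold change of 0.09 and an interval of -0.24 to 0.43. The second control with strand information held the highest Kat2b and the lowest Hexim1 value of its group, and no member passed without it.

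In CTCFYF-AA cells none of the 9 genes passed in edgeR at 2 h (3.97% of 14009 transcripts) or 4 h (4.94% of 14280), and none had an unadjusted p under 0.05. None passed after AGB1 (2.13% of 13619; 1 unadjusted p under 0.05, that of Kat2b at 0.0171) or after dTAG-13 in the line with both truncated alleles (0.0808% of 13618; none with an unadjusted p under 0.05). DESeq2 made no call in any of these 4 comparisons. When both alleles were degraded, Kat2b fell from 201 and 190 to 163 and 175 CPM (log2 fold change -0.21, SE 0.058; adjusted p = 0.016), the 1 gene of 9 that passed where 6.70% of 13753 transcripts did. DESeq2 did not make this call, the nested Kat2b row missed it (-0.18; adjusted p = 0.215), and it was lost without control replicate 1 or without treated replicate 1.

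The RAD21 and CTCF responses of mESCs were compared directly, at 4 h and 6 h of IAA in different lines. Hexim1 differed by -0.36 (SE 0.099; adjusted p = 0.00678, CTCF minus RAD21), and it passed in all 13 alternatives run. This fit used 1 spread per gene for the libraries of both experiments, and so did the alternatives. The SE may therefore understate the spread of the CTCF libraries, and the alternatives do not check this. In the CTCF comparison alone Hexim1 was at -0.16 and did not pass. Ccnt1 differed by -0.11 (SE 0.041; adjusted p = 0.0422) and passed in 6 of the 13. The other 7 genes did not pass, where 24.4% of 16225 transcripts did. Time, line and library type differ between the 2 sides and cannot be told apart from the protein that was lost.

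Related genes moved in both directions under A-485, and the widest changes were falls. Over all transcripts, 21.6% were higher and 41.0% lower under A-485, and 15.4% and 24.5% at 4 h of RAD21 loss. Of 16 other pause-release factors, 4 were higher and 7 lower (median log2 fold change -0.12, against -0.11 over all transcripts), and 2 fell at least 2-fold: Mllt3, of the super elongation complex, from 81.9 ± 2.9 to 19.2 ± 3.15 CPM (SD, n = 2; -2.09, adjusted p = 8.81e-12), and Aff1, a scaffold of that complex, at -1.81 (adjusted p = 9.93e-13). Cdk13, a kinase of elongating polymerase, fell by 0.67 on the log2 scale (adjusted p = 2.3e-07). Of 12 pausing and elongation factors, 7 were higher and none lower (median 0.19). The largest were the NELF subunit genes Nelfcd (0.46, adjusted p = 0.000128) and Nelfe (0.41, adjusted p = 0.00106), with Paf1 at 0.27 (adjusted p = 0.00617). At 4 h of RAD21 loss 1 of these 12 was higher and 2 lower (median -0.02), and Cdc73 had the largest change (-0.19, adjusted p = 0.000157). On library totals the A-485 values lie 0.33 higher.

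Among 11 other acetyltransferase genes, 2 were higher and 7 lower under A-485 (median -0.22), where 21.6% and 41.0% of all transcripts were. Ncoa2 fell by 1.27 (adjusted p = 1.28e-10) and Kat6b, of the MOZ/MORF complex, by 1.24 (adjusted p = 4.55e-11), while Hat1 rose by 0.32 (adjusted p = 0.000316). Kat6b also had the largest change of this list at 4 h of RAD21 loss, from 279 ± 3.11 to 168 ± 6.69 CPM (-0.73, adjusted p = 3.39e-16), where 8 of the 11 genes were lower and none higher, and 24.5% of all transcripts were lower. Of 18 SAGA and ATAC partners of GCN5 and PCAF, 6 were higher and 5 lower under A-485 (median 0.05). Supt3 fell by 0.99 (adjusted p = 9.77e-08) and was also lower at 4 h of RAD21 loss (-0.44, adjusted p = 1.19e-08). Tada2b (0.68, adjusted p = 2.97e-06) and Sgf29 (0.65, adjusted p = 1.02e-05), of the same list, rose under A-485.

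Of 11 other bromodomain reader genes in the table, 2 were higher and 4 lower under A-485 (median 0.01), where 21.6% and 41.0% of all transcripts were. The largest changes were those of Cecr2 (-1.2, adjusted p = 1.49e-07) and Baz2b (-1, adjusted p = 8.06e-10), with Brd9 at 0.32 (adjusted p = 0.00091). Of 13 deacetylase genes in the table, 3 were higher and 6 lower (median 0.05). The class IIa genes Hdac7 (-1.55, adjusted p = 5.42e-10), Hdac5 (-0.93, adjusted p = 1.24e-08) and Hdac4 (-0.66, adjusted p = 7.7e-07) fell most. Hdac5 rose at 4 h of RAD21 loss (0.53, adjusted p = 8.24e-11), with the same control libraries. Mllt3 fell in both (-1.24 at 4 h, adjusted p = 9.29e-21), as did Cecr2 (-0.46, adjusted p = 2.5e-05). After 6 h of CTCF loss 1 of the 81 tested genes of these 6 lists passed, Sirt1 (-0.3, adjusted p = 0.0418), where 3.57% of all transcripts did.

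Over the 18 groups with counts of whole gene bodies, the levels most like that of Kat2b were those of Clcn3 (Pearson r = 0.988 over group means of log2 CPM) and Elovl6 (0.979). Hexim1 was most like Taf6 (0.887) and Arpc5l (0.885), Crebbp most like Golgb1 (0.985) and Acap2 (0.976), and Ep300 most like Ggcx (0.94) and Slbp (0.901). For Kat2a 0610012G03Rik (0.912) is given, and the most alike were for Brd2 Ddx39b (0.962) and Rsrp1 (0.952), for Brd3 Zbtb21 (0.969) and Gpt2 (0.961), for Cdk9 Cactin (0.93) and Hmgn1 (0.928), and for Ccnt1 Zfp169 (0.95) and Tmem209 (0.948). These are descriptions over groups that share lines and library preparations, among 9675 transcripts.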

How the data were processed

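EU-seq reads were aligned by the authors with bwa meme to mm10, filtered with samtools 1.4 and Bedtools, and counted with HTSeq over the body of 1 transcript per gene. The deposited values are these counts, with no normalization. Counts of NPCs treated for 1 h, and of controls set against them, cover at most the first 90 kb of a gene. Whether counting used strand is not given in the sources used here.

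Transcripts were named through GENCODE M21 (27296 of 27665 matched with and 159 without the version number). Transcripts with a mean count above 20 in either group were tested with edgeR 4.0.16 in R 4.3.3 (TMM, quasi-likelihood F test, two-sided, library type as a covariate for CTCFAID), after treated libraries were rescaled so that expressed genes (above 15 TPM) had a median change of 0. P-values were adjusted by Benjamini-Hochberg over all tested transcripts, and CPM values are on this scale, set anew in each comparison. The NPC controls enter 4 comparisons, and comparisons of 1 line share their controls. DESeq2 1.42.0 and other settings were run as alternatives. All members were named. From each related list, up to 3 of the passing genes with the largest change were named for A-485 and 1 each for 4 h of RAD21 loss and for CTCFAID. The members, lists and motifs were chosen with earlier results of these data known. No pair of libraries of 1 group differed by sampling noise alone (chi-square per degree of freedom 1.44 to 38.2). Tested on simulated data with 15712 transcripts at the size of the A-485 comparison, the method recovered 70.7% of 1.5-fold and 91.9% of 2-fold changes. In the simulation 200 transcripts were changed, as many up as down. In the A-485 data 62.6% of transcripts passed, more of them lower than higher, so the simulation does not test the scaling. For each member the genes with the most similar levels were named, and 1 of these is not reported here.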

Additional observations from a re-analysis of the deposited data

Results flagged for a closer look

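The response to 4 h of RAD21 loss differed between NPCs and mESCs in the interaction test (edgeR's quasi-likelihood test) for 4 of the 9 genes: Kat2a by -0.26, Kat2b by 0.32, Brd2 by 0.12 and Ccnt1 by -0.14 on the log2 scale, NPC minus mESC. These were picked out because the difference between cell types itself passed an adjusted p of 0.05, as 33.9% of all transcripts did. Without 1 NPC library in turn, 2 or 3 genes passed, and Kat2b passed each time.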

How the results depend on the processing

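Hexim1 and Kat2b under A-485 (log2 fold change 0.86 to 1.24 and -1.15 to -0.72) and at 4 h of RAD21 loss in NPCs (0.2 to 0.38 and 0.27 to 0.51) kept direction and call under all 13 alternatives, as did Hexim1 in the mESC experiment with 12 libraries per group (0.16 to 0.24) under all 9. Scaling to library totals, the other rows of Kat2b and Brd3 and the crossed pairing were chosen after seeing the data. For RAD21 at 1 h in NPCs, the 1 passing gene became 0 in DESeq2, with the replicate block, with the gene-length trend, on library totals and with a spread shared with the third NPC group, and 2 with crossed replicate numbers as a block. At 2 h, the 1 passing gene became 0 in DESeq2 and with the gene-length trend, and 2 (Kat2a and Hexim1) without the low-count filter and with the replicate block (Kat2a adjusted p = 0.018). At 4 h, 5 became 3 in DESeq2 and 2 with the shared spread. In the 12-library experiment 3 became 6 with the gene-length trend and 6 on library totals. With both CTCF alleles degraded, 1 became 0 in DESeq2 and 0 with the nested Kat2b row. For A-485 against IAA, 4 became 7 on library totals. Without the low-count filter, the NPC and mESC difference went from 4 to 2 and the CTCF and RAD21 difference from 2 to 1. The cause of these changes was not tested.

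Leaving out single libraries gave 4 to 8 passing genes for A-485, 0 to 1, 0 to 3 and 3 to 5 for RAD21 in NPCs at 1, 2 and 4 h, 0 to 1 in the initial mESC experiment, 0 to 1 with both CTCF alleles degraded, 4 for A-485 against IAA, 2 to 3 for the NPC and mESC difference and 1 to 3 for the CTCF and RAD21 difference. Without the libraries of replicate 1, which carry another batch label than the rest of their groups, 4 genes passed in the 12-library experiment. The main test of that experiment had no term for batch.

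Signs turned for Crebbp under A-485 with the gene-length trend (0.22) and on library totals (0.27), for Ep300 (0.12) and Brd2 (0.02) under A-485 on library totals, for Crebbp at 4 h of RAD21 loss with the gene-length trend (0.09), for Ep300 there on library totals (0.01), and for Crebbp (0.28), Ep300 (0.21), Brd2 (0.01) and Cdk9 (0.04) in A-485 against IAA on library totals. Replicate numbers did not meet the rule for a block in the main test, a correlation of same-numbered deviations above 0.1 in each of at least 3 pairs (correlations of -0.149 to 0.298). Comparisons with 2 pairs could not meet this rule at any correlation. The value was 0.124 for A-485 and 0.213 for 2 h of IAA in NPCs, in both pairs. In 7 of the 11 comparisons with 2 pairs both libraries were closest to their own number, and 3 of 12 were in the 12-library experiment, whose control and treated libraries the study treats as matched. With the block, 3 genes passed there as before (Brd3, Hexim1 and Cdk9). For RAD21 loss in NPCs the block took the 1 passing gene to 0 at 1 h and to 2 at 2 h. It changed no other count of members by more than 1.5 times. Calls over all transcripts moved by more than 1.5 times in DESeq2 for RAD21 at 1, 2 and 4 h in NPCs (2683 to 1103, 2464 to 1573, 6447 to 4080), for the initial mESC experiment (1312 to 532), for CTCFAID (558 to 1105), for CTCFYF-AA at 2 and 4 h (556 to 244, 706 to 331), and for AGB1 (290 to 154) and both alleles (922 to 361). They also moved with the shared spread at 1 h (1417), with the block and the length trend at 2 h (3749 and 1348), with the block in the initial experiment (854) and after dTAG-13 (11 to 25, and 17 without the filter), and for CTCFAID without strand alone (1183) and with strand alone (0). Crossed numbers gave 3644 calls at 1 h, 1872 in the initial experiment and 10085 for A-485 against IAA. Without single libraries, calls ran from 1700 to 2412 at 1 h, 1256 to 4932 at 2 h, 350 to 2042 in the initial experiment, 211 to 858 for CTCFAID, 363 to 406 and 444 to 646 for CTCFYF-AA, and 571 to 714 for both alleles.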
